A study of Mus musculus with 12 samples.

Results

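The 64 transcripts described here carry only a provisional name, ending in Rik (a RIKEN cDNA clone) or written as Gm and a number (a predicted gene), and in WT growing oocytes their level was far higher in nuclear than in cytoplasmic libraries. They were chosen from the 3411 Rik and Gm rows of a table of 23235 rows, as those with at least 5 FPKM in each of the 3 WT nuclei and a lowest WT nuclear value at least 8 times the highest WT cytoplasmic value. FPKM scales the fragments of a gene by transcript length and by the mapped fragments of its library, so levels of different genes are compared per length. A value is a share of its own library and does not say how many molecules lie in a nucleus or a cytoplasm. In all, 67 rows met level and ratio. Of 4 symbols left out by name, 3 were among them. The WT values chose the members, so the WT contrast below is a description without a test.

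Oocytes were taken from mice at day 14, and each was divided by micromanipulation into nucleus and cytoplasm. Each library was made from the total RNA of 10 nuclei or 10 cytoplasms, without ribosomal RNA, and the question set by the design is how RNA changes in each compartment when MTR4 is missing. The 12 libraries formed 4 groups of 3, namely Mtr4-null nucleus, WT nucleus, Mtr4-null cytoplasm and WT cytoplasm. The labels give the genotypes only as Mtr4-null and WT, with no strain, allele or Cre driver. Nothing in them says that replicates are different animals or collections, and each p-value is therefore set only against the spread among libraries, part of which may be technical.

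Long noncoding RNAs are transcripts without a long open reading frame, and many stay in the nucleus, where the nuclear exosome trims or degrades a share of them. MTR4 is the RNA helicase that threads RNA into that exosome, working with adaptor complexes that choose the substrates. Growing oocytes store large amounts of messenger RNA in the cytoplasm, so a transcript that stays in the nucleus stands apart from most of the oocyte's RNA.

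The sequences below belong to the RNAs on which the results turn, which are the pair of most abundant Rik transcripts in the nucleus and the Rik transcripts called higher in Mtr4-null than in WT cytoplasm. Of the last, 2500004C02Rik had no promoter entry. Promoters are from RefSeq on GRCm38.p6, each a window of 300 bases that holds the start site, and 45 of the 64 members had an entry. The FPKM values come from mm9, and these positions identify the genes and were not used for any value. Letters in capitals mark motifs found on either strand. The motifs searched were the TATA box, spelled TATAAA, and the CCAAT box, spelled by its name. The others were the GC box, spelled GGGCGG, and an element bound by the oocyte factor NOBOX, spelled TAATTG. A130077B15Rik lies at chr10:122569842-122570141 (minus strand) and A630089N07Rik at chr16:98082390-98082689 (minus strand). A330032B11Rik lies at chr19:37173593-37173892 (plus strand), A330069E16Rik at chr2:91236896-91237195 (plus strand), 4921508A21Rik at chr11:55197633-55197932 (minus strand) and 2810032G03Rik at chr12:5375470-5375769 (plus strand). Each line reads 5′ to 3′ on the strand of the gene.
A130077B15Rik: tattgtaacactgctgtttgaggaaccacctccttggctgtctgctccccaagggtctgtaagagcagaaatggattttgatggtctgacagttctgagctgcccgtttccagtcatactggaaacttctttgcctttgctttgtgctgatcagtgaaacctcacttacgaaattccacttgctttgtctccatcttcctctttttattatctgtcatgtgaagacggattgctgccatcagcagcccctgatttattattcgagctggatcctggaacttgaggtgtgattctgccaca
A630089N07Rik: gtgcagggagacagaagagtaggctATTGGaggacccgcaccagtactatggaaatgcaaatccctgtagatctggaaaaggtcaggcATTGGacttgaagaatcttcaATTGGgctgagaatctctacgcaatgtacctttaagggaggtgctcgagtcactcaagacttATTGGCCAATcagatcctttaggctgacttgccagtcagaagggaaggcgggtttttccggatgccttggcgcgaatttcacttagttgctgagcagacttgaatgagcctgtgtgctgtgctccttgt
A330032B11Rik: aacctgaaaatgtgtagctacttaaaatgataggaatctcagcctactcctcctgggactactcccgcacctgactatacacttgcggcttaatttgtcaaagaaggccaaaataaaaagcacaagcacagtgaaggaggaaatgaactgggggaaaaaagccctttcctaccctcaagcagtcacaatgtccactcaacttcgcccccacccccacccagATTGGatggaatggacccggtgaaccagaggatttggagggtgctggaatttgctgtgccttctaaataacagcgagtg
A330069E16Rik: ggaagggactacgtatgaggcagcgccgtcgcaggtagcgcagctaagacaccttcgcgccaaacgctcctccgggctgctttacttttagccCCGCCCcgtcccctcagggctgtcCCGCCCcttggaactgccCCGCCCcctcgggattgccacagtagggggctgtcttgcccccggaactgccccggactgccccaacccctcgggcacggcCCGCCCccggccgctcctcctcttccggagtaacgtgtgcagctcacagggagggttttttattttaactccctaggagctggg
4921508A21Rik: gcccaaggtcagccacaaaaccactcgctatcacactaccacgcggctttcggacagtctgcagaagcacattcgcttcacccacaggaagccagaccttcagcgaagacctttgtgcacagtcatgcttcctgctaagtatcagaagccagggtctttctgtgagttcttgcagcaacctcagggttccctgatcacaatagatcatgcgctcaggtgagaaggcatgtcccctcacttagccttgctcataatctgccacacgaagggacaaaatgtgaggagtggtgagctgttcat
2810032G03Rik: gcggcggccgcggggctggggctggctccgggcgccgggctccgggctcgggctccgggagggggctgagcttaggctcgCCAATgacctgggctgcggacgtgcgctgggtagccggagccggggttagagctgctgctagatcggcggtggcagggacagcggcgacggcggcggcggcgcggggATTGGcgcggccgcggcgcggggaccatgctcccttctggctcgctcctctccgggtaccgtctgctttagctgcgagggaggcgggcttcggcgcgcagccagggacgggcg

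The promoters had little in common in these letters. That of A130077B15Rik held none of the motifs and 4 CpG dinucleotides, while that of A630089N07Rik held 5 CCAAT boxes over both strands, a pair of them directly side by side. That of A330069E16Rik held 4 GC boxes, and that of 2810032G03Rik had 42 CpG dinucleotides and a GC content of 76.7%. Over the 45 members with an entry, a TATA box stood in 15.6% (14.2% of the 27025 promoters in the table), a CCAAT box in 33.3% (38.0%), a GC box in 33.3% (35.9%) and the NOBOX element in 2.22% (8.14%). A match is a description of letters and not a site.

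A polyadenylation signal bears on how an RNA ends, and the last 60 bases are shown for 5 of these RNAs that held AATAAA, the commonest form of that signal. A330032B11Rik held the variant ATTAAA and no AATAAA in its last 40 bases and is not shown. A630089N07Rik held AATAAA in the last 40 bases of 3 transcripts. It is not shown because ends were taken only for genes that GENCODE classes as long noncoding RNAs. The ends are from GENCODE M21 transcripts on GRCm38, with AATAAA in capitals.
A130077B15Rik: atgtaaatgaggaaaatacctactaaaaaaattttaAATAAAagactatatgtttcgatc
2500004C02Rik: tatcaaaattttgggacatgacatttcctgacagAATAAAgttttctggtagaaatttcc
2810032G03Rik: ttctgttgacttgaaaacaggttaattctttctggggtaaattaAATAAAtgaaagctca
4921508A21Rik: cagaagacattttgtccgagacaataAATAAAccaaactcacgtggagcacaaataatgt
A330069E16Rik: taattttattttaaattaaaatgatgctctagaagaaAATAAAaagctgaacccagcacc

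Of the 60 members matched to GENCODE M21 (14 through a RefSeq synonym), 34 (56.7%) had AATAAA in the last 40 bases of a transcript. The share was 70.0% of 323 other Rik and Gm genes with the same WT nuclear level but a lower ratio, and 65.7% of the 1378 other Rik and Gm genes tested that matched.

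Most members were annotated as noncoding. By GENCODE class, long noncoding RNAs made up 39 of the 60 (65.0%), against 23.8% of the Rik and Gm genes with the same WT nuclear level. The 39 include Gm12238, 124 bases long and a small nucleolar RNA gene in RefSeq. They also include 5730577I03Rik, a transcribed pseudogene in RefSeq. Genes annotated as protein coding made up 16 (26.7%), against 70.0%, and pseudogenes 5 (8.33%), against 6.19%. Members had a median of 3 exons, a transcript length of 1904 bases and a GC content of 45.7%, against 5 exons, 2453 bases and 47.8% in the same genes. These are counts over annotations, and no test was made of them.

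Several members have since received a name. 6720401G13Rik is Firre, a nuclear RNA that escapes X inactivation and is known to bring chromosomes together; 2410007B07Rik is Platr10, found in pluripotent cells; and 5730577I03Rik, 4921508A21Rik and 2610019E17Rik carry the RefSeq names Fbxl12os, Slc36a1os and Rab26os, of which only Rab26os overlapped a named protein-coding gene on the opposite strand in the annotation used. Gm12238 is a small nucleolar RNA gene in RefSeq, 124 bases long, inside G3bp1 on the same strand. Gm9159 is a pseudogene inside Ftx, a noncoding gene of the X inactivation centre. Among the protein-coding names are A430110N23Rik (Ssc5d, a scavenger receptor gene) and Gm15292 (Defa40, of the alpha-defensin family, whose close copies can share reads).

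**Figure D1:**
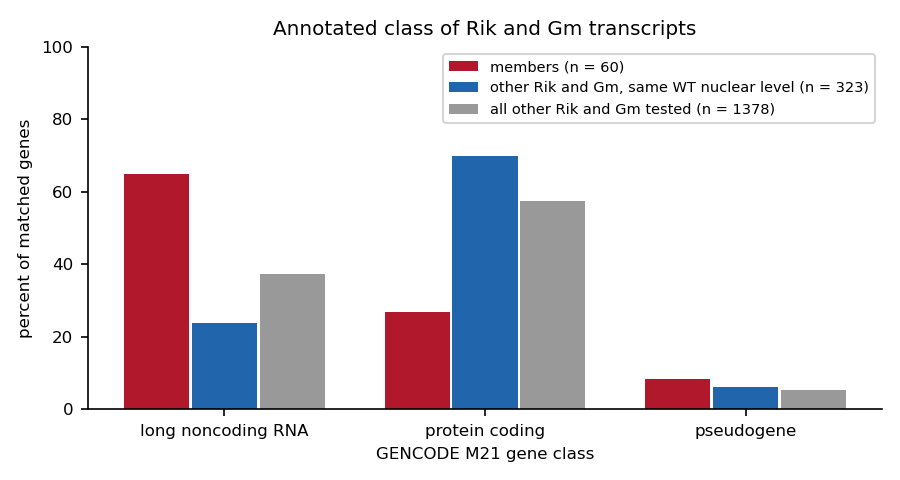
Percent of matched genes in each GENCODE M21 class, for the members (red), other Rik and Gm genes with the same WT nuclear level (blue) and all other Rik and Gm genes tested (grey). Long noncoding RNAs reach 65.0% of members, against 23.8% and 37.2% in the other lists.

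Overlapping genes matter because the use of strand in counting is not given in the sources used here, so reads of a gene and its antisense partner cannot be told apart. On the opposite strand of a named protein-coding gene lay 18 members (30.0%), and 4 overlapped such a gene on the same strand. Of 23 partners in the table, 14 were tested, and none was higher in the nuclei labelled Mtr4-null than in Mtr4-null cytoplasm, while 6 were lower (28.1% of all rows tested were lower). Their median log2 difference was -0.997, against -0.82 over all rows. Without replicates 1 and 3 of those nuclei the partners' median was -1.598, against -1.279 over all rows. In WT libraries the partners' median was -1.14, and Spata17 (1.22, limma adjusted p = 0.021) and Eml6 (1.10, adjusted p = 0.0097) were higher in the nucleus than in the cytoplasm. 2500004C02Rik, for instance, lies opposite Asxl1, a chromatin regulator that averaged 52.4 ± 34.7 FPKM in nuclei labelled Mtr4-null and 111 ± 19.9 FPKM in Mtr4-null cytoplasm (SD, n = 3 each).

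Some libraries go against their labels. Mtr4 appears under the older symbol Skiv2l2 and was at 7.98, 0.182 and 1.12 FPKM in the nuclei labelled Mtr4-null and at 6.06, 2.45 and 5.37 FPKM in WT nuclei (log2 difference -0.93, limma adjusted p = 0.42). In cytoplasm it was at 1.04, 0.315 and 0.700 FPKM in Mtr4-null libraries and at 21.1, 19.4 and 20.2 FPKM in WT libraries (-3.68, adjusted p = 0.0048). Replicate 1 of the nuclei labelled Mtr4-null thus lay above every WT nucleus in Skiv2l2, against its label. Replicate 3 of the same group stood nearer to cytoplasm over all rows and nearer to nuclei over the members. Its Spearman correlation over all rows tested was 0.931, 0.916 and 0.930 with the 3 Mtr4-null cytoplasms, and 0.837 and 0.831 with the other 2 nuclei of its group (these libraries share depth and composition effects, and no p is given). Over the 64 members it was 0.890, 0.853 and 0.820 with the WT nuclei and 0.620, 0.630 and 0.609 with the Mtr4-null cytoplasms. Its Scarna2 share of 58.0% and Malat1 of 154 FPKM were far above those of any cytoplasm, and Rn45s was listed at 0. Counts of called members, list counts and ratio counts are also given without both libraries, which leaves replicate 2 as the lone nucleus labelled Mtr4-null. That library had limits of its own. It had 13170 rows above 0, the fewest of all libraries, and 7 members at 0. Its correlation over all rows tested was 0.763 with replicate 1 and 0.7145, 0.7465 and 0.7409 with the WT nuclei. Over the members it was 0.6214, 0.7154 and 0.6415 with the WT nuclei.

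The 12 oocyte markers summed to 6229, 3261 and 12207 FPKM in nuclei labelled Mtr4-null, 5993, 3705 and 7412 in WT nuclei, 14014, 11329 and 17058 in Mtr4-null cytoplasm and 12007, 11669 and 12219 in WT cytoplasm, and all 12 averaged at least 1 FPKM in each group. The 14 granulosa markers summed to 13.02 to 43.5 FPKM in nuclei labelled Mtr4-null, 23.6 to 35.9 in WT nuclei, 32.9 to 44.0 in Mtr4-null cytoplasm and 56.0 to 65.8 in WT cytoplasm. The 11 theca and stroma markers summed to 37.6 FPKM in WT nucleus replicate 2 and at most 5.90 elsewhere. The part of such cells in the results was not tested, and in bulk samples fewer cells of a type and less RNA per cell cannot be told apart. A single small RNA of Cajal bodies, Scarna2, made up 58.0% to 81.7% of all FPKM in nuclear libraries and at most 5.13% in cytoplasmic ones. FPKM is scaled by mapped fragments, so an RNA that takes more of a library's fragments lowers the other values. FPKM itself has no fixed total. Without Scarna2 it summed to between 398858 and 596896 in nuclear libraries and between 404831 and 455557 in cytoplasmic ones. The effect of Scarna2 on the other values was not tested. Read depth is unknown here.

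In WT nuclei the members spanned a wide range of levels. Their means over the 3 libraries ran between 5.85 and 2669 FPKM with a median of 17.8 FPKM, and 8 lay above 100 FPKM while 13 lay below 10 FPKM. Their means in WT cytoplasm ran between 0 and 13.7 FPKM, with a median of 0.344 FPKM. The lowest WT nuclear value was a median of 20.9 times the highest WT cytoplasmic value over the 61 members where a ratio can be formed (range 8.02 to 244). Gm12238, Gm749 and Gm4794 were listed at 0 in all WT cytoplasms. Just inside the threshold lay A430110N23Rik (ratio 8.02), 1700007P06Rik (8.05) and Gm10941 (9.06), and just outside it A130040M12Rik (7.41), A630055G03Rik (7.25) and 2810021B07Rik (6.92).

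**Figure D2:**
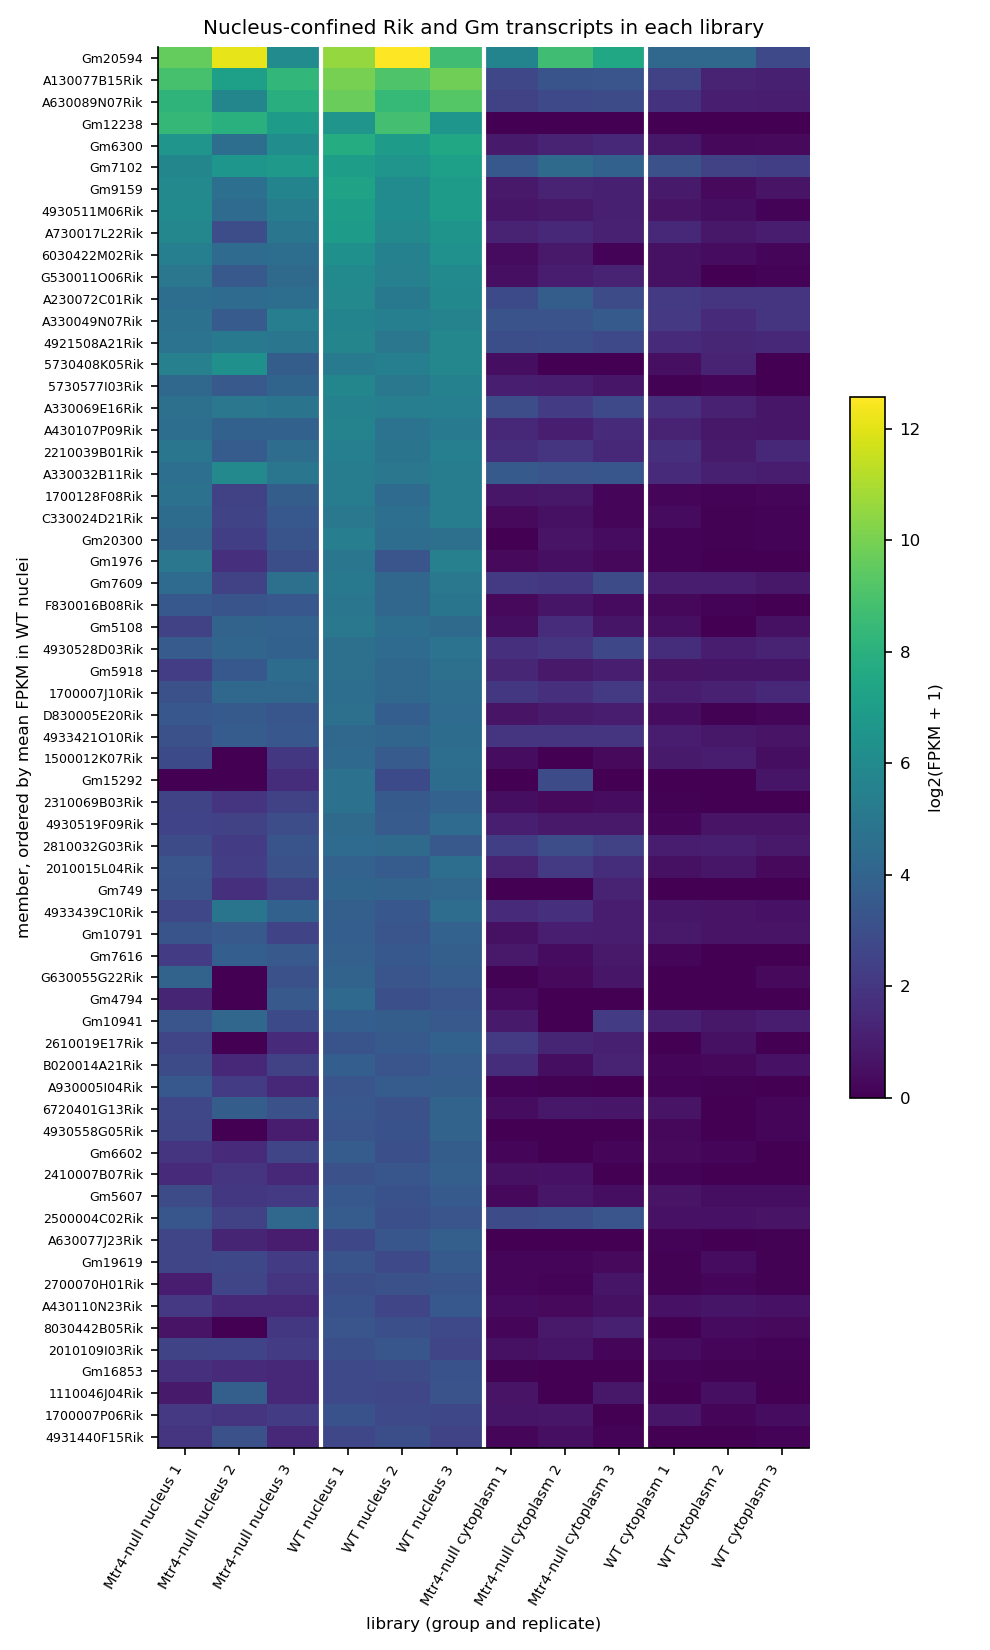
log2(FPKM + 1) of each of the 64 members (rows, by mean FPKM in WT nuclei) in the 12 libraries (columns), with white lines between the 4 groups. The nuclear columns are bright and the cytoplasmic columns dark, most of all in WT cytoplasm, and Gm20594 in the top row stays at 5.88 FPKM or above in all 12 libraries.

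Gm20594, a single-exon gene annotated as protein coding, had the highest WT nuclear level. It was at 784, 4352 and 66.7 FPKM in nuclei labelled Mtr4-null and at 1521, 6061 and 424 FPKM in WT nuclei. In Mtr4-null cytoplasm it was at 49.2, 413 and 187 FPKM, and in WT cytoplasm at 17.7, 17.4 and 5.88 FPKM. Replicate 2 was the highest library in both nuclear groups, and the genotypes overlapped in the nucleus but not in the cytoplasm. The ribosomal RNA precursor Rn45s moved with it in cytoplasm, at 2211, 20429 and 9796 FPKM in Mtr4-null libraries and at 1880, 805 and 332 FPKM in WT libraries, and was listed at 0 in all nuclei. Its part in the Gm20594 values was not tested.

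A130077B15Rik, a long noncoding RNA of chromosome 10 (GRCm38), came next. It was at 477, 136 and 319 FPKM in nuclei labelled Mtr4-null and at 1004, 555 and 921 FPKM in WT nuclei. Its cytoplasmic values were 5.47, 8.72 and 8.81 FPKM in Mtr4-null libraries and 4.53, 1.27 and 1.14 FPKM in WT libraries. The nuclei labelled Mtr4-null all lay below the WT nuclei and the Mtr4-null cytoplasms all above the WT cytoplasms.

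A630089N07Rik, on chromosome 16, is noncoding in RefSeq and protein coding in GENCODE M21. It was at 289, 53.8 and 234 FPKM in nuclei labelled Mtr4-null and at 819.7, 344 and 607 FPKM in WT nuclei. Its cytoplasmic values were 4.33, 5.88 and 6.59 FPKM in Mtr4-null libraries and 2.60, 1.07 and 1.04 FPKM in WT libraries. Again neither compartment had overlapping genotypes.

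The small nucleolar RNA gene Gm12238 was the fourth most abundant. It was at 325, 247 and 120.0 FPKM in nuclei labelled Mtr4-null and at 91.5, 444 and 96.1 FPKM in WT nuclei, and the genotypes overlapped. It was listed at 0 in all 6 cytoplasms.

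Nuclear confinement was then tested by comparing nuclei labelled Mtr4-null with Mtr4-null cytoplasm, whose values had no part in choosing the members, although the fit takes its spread from all 12 libraries, WT included. Most members were again higher in nuclei. Of the 64, 53 were higher in the nucleus and 0 lower (limma adjusted p below 0.05), in a comparison where 4.08% of the 13157 rows tested were called higher and 28.1% lower. The median log2 difference of the members was 1.99 (quartiles 1.49 and 2.82), against -0.82 over all rows. The 3 nuclei lay above all 3 cytoplasms for 52 members (5.95% of all rows) and below them for 0 (35.8%).

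All 64 members entered the test, 56 of which would have passed the filter on low values without the WT nuclei. In a fit of the 6 libraries labelled Mtr4-null alone, 35 were called higher (1.49% of 11671 rows), from 55 members tested. The count was 37, 36 and 37 without Mtr4-null cytoplasm replicate 1, 2 and 3 (158, 157 and 158 rows in all), and 44 without replicate 1 of the nuclei labelled Mtr4-null (2.03%). It was 50 without replicates 1 and 3 (603 of 12798 rows), where the lone remaining nucleus was assumed to vary like the other groups, and 48 of the 53 were among them. There 1 member, 2610019E17Rik, was called lower (-1.51, adjusted p = 0.012), as were 7868 rows.

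Among the 338 other Rik and Gm rows with at least 5 FPKM in each WT nucleus, 29 were higher in nuclei labelled Mtr4-null than in Mtr4-null cytoplasm, 92 were lower, and their median log2 difference was -0.83. The 141 rows with other names that met the same level and ratio had 115 higher, 0 lower and a median of 2.30. Without replicates 1 and 3 the 338 rows had 32 higher, 211 lower and a median of -1.32, and the 141 rows had 103 higher, 1 lower and a median of 2.21.

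**Figure D3:**
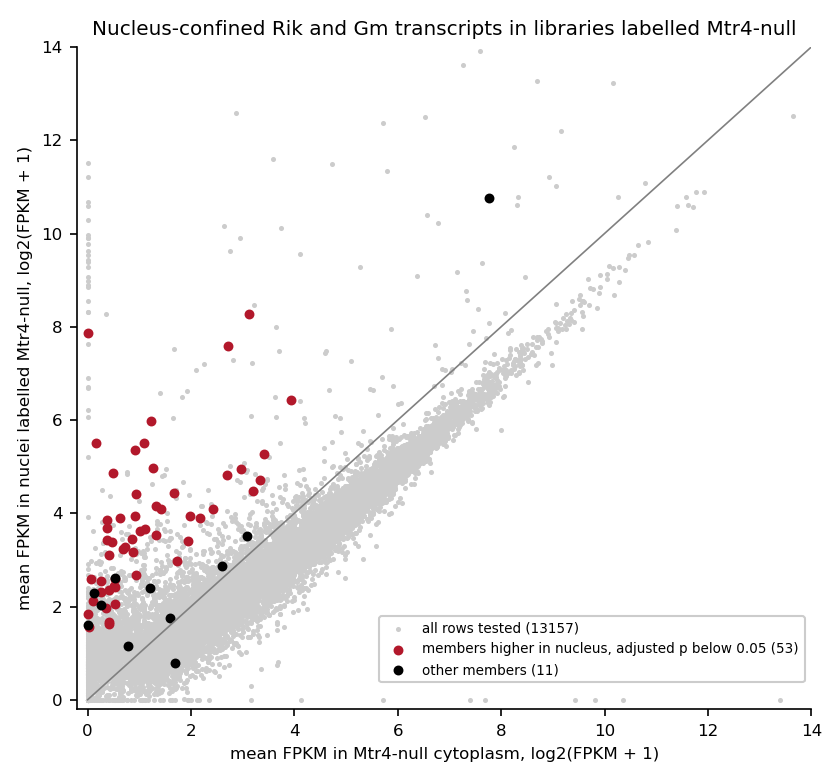
Mean FPKM of the 3 nuclei labelled Mtr4-null (y axis) against the 3 Mtr4-null cytoplasms (x axis), both as log2(FPKM + 1), with the line of equal values and 4 rows beyond the axes. The 53 members called higher in the nucleus (red) lie above the line, and of the 11 others (black) Gm15292 alone lies below it.

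The largest nuclear excess among members in libraries labelled Mtr4-null belonged to Gm12238 (log2 difference 7.74 ± 0.52 SE, adjusted p = 4.5e-07), which rests on cytoplasmic values listed at 0. The next were 5730408K05Rik (5.03 ± 0.54, adjusted p = 7.1e-05) and A130077B15Rik (5.02 ± 0.47, adjusted p = 1.9e-05). 5730408K05Rik was at 44.0, 78.2 and 12.2 FPKM in nuclei labelled Mtr4-null, 34.8, 42.3 and 56.0 in WT nuclei, 0.359, 0 and 0 in Mtr4-null cytoplasm and 0.414, 1.29 and 0 in WT cytoplasm. A630089N07Rik (4.57 ± 0.53), the transcribed pseudogene Gm6300 (4.54 ± 0.46) and Gm9159 (4.33 ± 0.41) followed, each with an adjusted p of at most 0.00013. All 6 kept their call under every alternative run and with each library left out. Without replicates 1 and 3 the difference was 7.95 for Gm12238, 6.16 for 5730408K05Rik, 4.01 for A130077B15Rik, 3.07 for A630089N07Rik, 3.34 for Gm6300 and 3.52 for Gm9159.

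Gm6300 was separated widely between the compartments. It was at 93.1, 22.3 and 69.5 FPKM in nuclei labelled Mtr4-null, 218, 116 and 185 in WT nuclei, 0.873, 1.41 and 1.70 in Mtr4-null cytoplasm and 0.765, 0.221 and 0.236 in WT cytoplasm. 6030422M02Rik, now Mcmdc2, a gene of meiotic recombination, was similar, at 41.8, 19.7 and 22.4 FPKM in nuclei labelled Mtr4-null, 79.4, 44.9 and 82.2 in WT nuclei, 0.303, 0.834 and 0.0925 in Mtr4-null cytoplasm and 0.495, 0.357 and 0.110 in WT cytoplasm. Firre (6720401G13Rik) was lower in level, at 5.30, 12.2 and 7.60 FPKM in nuclei labelled Mtr4-null, 9.74, 7.76 and 15.3 in WT nuclei, 0.338, 0.782 and 0.695 in Mtr4-null cytoplasm and 0.585, 0.0336 and 0.130 in WT cytoplasm. In all 3 genes each nucleus exceeded each cytoplasm of either genotype.

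The 11 members without a call were 2500004C02Rik, 2810032G03Rik, 2610019E17Rik, 8030442B05Rik, Gm15292, Gm20594, 1500012K07Rik, 4930558G05Rik, Gm4794, B020014A21Rik and 1110046J04Rik. 1110046J04Rik was named after its values were seen. For 2500004C02Rik (0.26 ± 0.41, adjusted p = 0.60) and 2810032G03Rik (0.24 ± 0.38, adjusted p = 0.60) the Mtr4-null cytoplasmic level was close to the nuclear one. 1500012K07Rik, 4930558G05Rik, Gm4794, 2610019E17Rik and 8030442B05Rik were listed at 0 in replicate 2 of the nuclei labelled Mtr4-null. In all, 7 members were listed at 0 in at least 1 nucleus of that group. By library there were 7 in replicate 2, 1 in replicate 1 and 0 in replicate 3. Gm15292 was listed at 0 in the first 2 nuclei labelled Mtr4-null and at 2.17 FPKM in the third, while the Mtr4-null cytoplasms had 0, 6.65 and 0 FPKM.

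The ratio rule of 8 between the lowest nucleus and the highest cytoplasm was met in the Mtr4-null libraries by 17 members (26.6%, against 1.14% of all rows), 12 of them also with at least 5 FPKM in each nucleus. With replicate 2 as the only nucleus it was met by 25 (39.1%, against 2.56% of all rows). Of the 141 rows with other names that met level and ratio in WT, 58 (41.1%) met the ratio in Mtr4-null libraries, and 75 (53.2%) with replicate 2 as the only nucleus. Because the rule had selected on the WT ratio, a smaller ratio in other libraries is what the choice itself favours, and nothing is read from the drop. The ratio of group means was at least 8 for 42 members (703 of the 13157 rows tested). The mean nucleus exceeded the mean cytoplasm for 63 members (2662 rows). With replicate 2 as the only nucleus these counts were 37 and 55 members (579 and 1792 rows).

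The same can be put as the cytoplasmic mean in percent of the nuclear mean. Its median over members was 8.995% in Mtr4-null libraries (11.4% with replicate 2 as the only nucleus) and 1.28% in WT libraries. The rule itself holds the WT percentage low, so nothing is read from that contrast. Over all rows tested the Mtr4-null median was 176.5% (318.9% with replicate 2 as the only nucleus). Malat1, an abundant RNA of nuclear speckles, had 1.19% in Mtr4-null libraries (1.82% with replicate 2 as the only nucleus) and 0.264% in WT libraries, and 58 and 57 members lay above it in Mtr4-null and WT libraries. Malat1 in cytoplasm was at 1.002, 3.24 and 2.29 FPKM in Mtr4-null libraries and at 2.72, 0.468 and 0.365 FPKM in WT libraries, so the genotypes overlapped. The share of nuclear RNA carried over into a cytoplasm by micromanipulation was not tested.

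Between the genotypes in the nucleus, members were lower in the libraries labelled Mtr4-null. The rule had required high WT nuclear values, which favours a lower value in any other library, so these counts are a description. Of the 64, 13 were called lower and 0 higher (1.75% and 0.517% of all rows), the median log2 difference was -1.28 (0.04 over all rows), and 63 of 64 differences were below 0. The 3 nuclei labelled Mtr4-null lay below all WT nuclei for 41 members (6.70% of all rows) and above them for 0 (6.22%). The 141 rows with other names that met the same level and ratio had 19 called lower, 0 higher and a median of -1.30. For 69 of them these nuclei lay below all WT nuclei and for 1 above. The fall was thus not particular to Rik and Gm names. Replicate 2 on its own lay below all WT nuclei for 51 members (79.7%), against 50.6% of all rows.

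How much of this follows from the choice was examined by choosing members from the other 2 WT nuclei and setting the left-out WT nucleus against the nuclei labelled Mtr4-null. The median log2 difference was -1.24 over 69 members chosen without WT nucleus replicate 1, -0.70 over 106 chosen without replicate 2 and -1.26 over 70 chosen without replicate 3. The medians over all rows tested were -0.08, 0.34 and -0.13. The left-out WT nucleus itself differed from the mean of the other 2 by a median of 0.20, -0.75 and 0.23, so WT nucleus replicate 2 stood as far below its group as the nuclei labelled Mtr4-null stood below it.

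The count of 13 was not stable. It was 0 without WT nucleus replicate 1 and 0 without WT nucleus replicate 3, 31 without replicate 1 of the nuclei labelled Mtr4-null and 40 without replicates 1 and 3, the 13 among them. The rows called lower moved as well, to 716 of 12989 (5.51%) without replicate 1 and 3281 of 12798 (25.6%) without replicates 1 and 3, against 1.75% with all libraries. The median of all rows was -0.49 without replicates 1 and 3, where that of the members was -1.55. Without WT nucleus replicate 1 and 3, the share of all rows called lower was 0.0861% and 0.0942%. The count of members was 7 without any single cytoplasmic library (1.02% to 1.05% of all rows). Those libraries enter through the shared spread and the filter. The direction of the members' median was negative under each of these omissions.

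The members with the lowest levels relative to WT nuclei were often listed at 0 in single libraries. Gm15292 was at 0, 0 and 2.17 FPKM in nuclei labelled Mtr4-null and at 24.8, 6.03 and 20.9 FPKM in WT nuclei (-3.43 ± 0.72, adjusted p = 0.023). 1500012K07Rik, a long noncoding RNA opposite Sv2b, was at 6.09, 0 and 3.14 FPKM in nuclei labelled Mtr4-null and at 18.5, 11.2 and 22.6 FPKM in WT nuclei (-2.53 ± 0.55, adjusted p = 0.027). 4930558G05Rik was at 5.2003, 0 and 0.959 FPKM in nuclei labelled Mtr4-null and at 8.78, 7.99 and 14.97 FPKM in WT nuclei (-2.28 ± 0.50, adjusted p = 0.027). In these 3 genes the groups did not overlap.

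Rab26os (2610019E17Rik), which contains the small nucleolar RNA Snord60, was at 5.19, 0 and 1.91 FPKM in nuclei labelled Mtr4-null and at 8.76, 10.6 and 13.8 FPKM in WT nuclei (-2.18 ± 0.53, adjusted p = 0.045). 8030442B05Rik was at 0.597, 0 and 3.08 FPKM in nuclei labelled Mtr4-null and at 9.06, 7.34 and 5.82 FPKM in WT nuclei (-2.15 ± 0.44, adjusted p = 0.022). Platr10 (2410007B07Rik) had the lowest adjusted p, with 1.80, 2.73 and 1.77 FPKM in nuclei labelled Mtr4-null and 7.58, 9.21 and 12.7 FPKM in WT nuclei (-1.79 ± 0.32, adjusted p = 0.010). The nuclei labelled Mtr4-null were below every WT nucleus in each case.

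Fbxl12os (5730577I03Rik) was the most abundant member called lower, at 17.5, 10.5 and 15.3 FPKM in nuclei labelled Mtr4-null and 53.4, 31.1 and 44.9 FPKM in WT nuclei (-1.51 ± 0.33, adjusted p = 0.029). The others called lower were Ssc5d (A430110N23Rik), 2310069B03Rik, 4930519F09Rik, A630077J23Rik, Gm16853 and Gm6602, with log2 differences between -1.76 and -1.38. The last 5 of these were named after their values were seen, since the rule for named genes did not reach them. By GENCODE class, 9 of the 13 were long noncoding RNAs, 2 protein coding, 1 a pseudogene and 1 without a match.

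**Figure D4:**
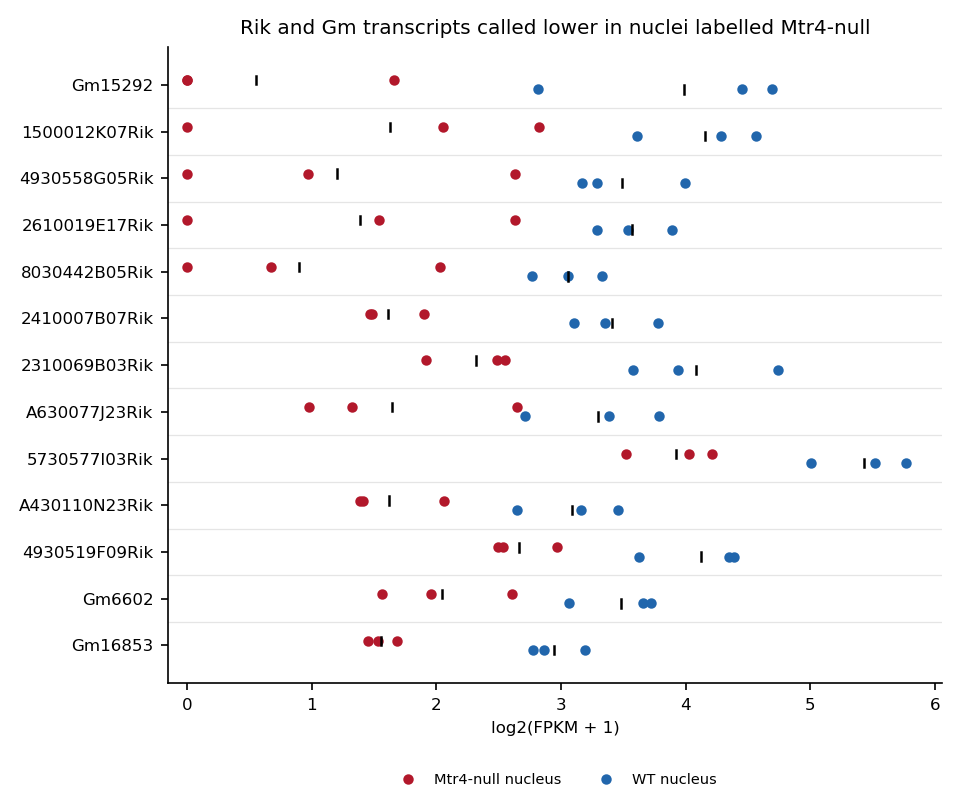
log2(FPKM + 1) of the 13 members called lower in the nuclei labelled Mtr4-null (red) than in WT nuclei (blue), 1 dot a library and a black tick at the mean of 3. For each gene the 3 red dots lie left of the 3 blue dots, and the red dots at 0 are libraries where the gene was listed at 0.

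A few members differed little. Gm12238 was the only member with a positive difference (0.43 ± 0.52, adjusted p = 0.72). For 2500004C02Rik (-0.01 ± 0.41), A330032B11Rik (-0.04 ± 0.36) and 4933439C10Rik (-0.08 ± 0.49) the standard error exceeded the difference, and the libraries of the genotypes overlapped. 4933439C10Rik, a long noncoding RNA opposite Zkscan17 that was named after its values were seen, was at 5.33, 29.0 and 13.8 FPKM in nuclei labelled Mtr4-null and at 12.7, 9.71 and 21.5 FPKM in WT nuclei.

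Between the genotypes in the cytoplasm, 5 members were called higher in Mtr4-null libraries and 0 lower (1.17% and 0.714% of all rows). The rule had required low WT cytoplasmic values, which favours a higher value elsewhere, so this is again a description. The median log2 difference was 0.41 (0 over all rows), and 54 differences were above 0 and 9 below. The Mtr4-null cytoplasms lay above all WT cytoplasms for 28 members and below them for 3 (23.0% and 20.9% of all rows). The 141 rows with other names that met the same level and ratio had 4 called higher, 0 lower and a median of 0.10. For 41 of them the Mtr4-null cytoplasms lay above all WT cytoplasms and for 9 below. With members chosen without WT cytoplasm replicate 1, 2 or 3, the median against the left-out library was 0.31, 0.42 and 0.41, while that library differed from the other 2 by 0.18, -0.05 and -0.07.

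2500004C02Rik, a long noncoding RNA on the opposite strand of Asxl1, showed the largest called difference. It was at 6.30, 7.10 and 9.04 FPKM in Mtr4-null cytoplasm and at 0.515, 0.523 and 0.608 FPKM in WT cytoplasm (2.44 ± 0.41, adjusted p = 0.0078). Its nuclear values were 9.36, 4.33 and 17.5 FPKM in libraries labelled Mtr4-null and 11.6, 7.49 and 8.81 FPKM in WT libraries. The cytoplasmic groups were far apart while the nuclear groups overlapped, and the Mtr4-null cytoplasms lay within the range of the nuclei labelled Mtr4-null. Asxl1 itself averaged 111 ± 19.9 FPKM in Mtr4-null cytoplasm and 102.5 ± 14.2 FPKM in WT cytoplasm (SD, n = 3 each; log2 difference 0.10, adjusted p = 1).

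A330032B11Rik, opposite Cpeb3 (an RNA-binding protein gene), was at 10.9, 8.81 and 9.12 FPKM in Mtr4-null cytoplasm and at 1.82, 1.14 and 0.931 FPKM in WT cytoplasm (2.22 ± 0.36, adjusted p = 0.0060). In nuclei it was at 23.4, 59.2 and 29.8 FPKM in libraries labelled Mtr4-null and at 37.3, 30.5 and 39.4 FPKM in WT libraries. Cpeb3 averaged 34.5 ± 2.11 FPKM in Mtr4-null cytoplasm and 28.6 ± 2.75 FPKM in WT cytoplasm (SD, n = 3 each; log2 difference 0.27, adjusted p = 0.91). Neither partner was called between the genotypes in cytoplasm.

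2810032G03Rik, whose start lies within 1 kb of the start of Klhl29 on the other strand, was at 3.99, 6.77 and 4.43 FPKM in Mtr4-null cytoplasm and 0.965, 1.06 and 0.831 FPKM in WT cytoplasm (1.61 ± 0.38, adjusted p = 0.040). In nuclei it was at 6.58, 3.74 and 8.67 FPKM in libraries labelled Mtr4-null and at 20.2, 19.3 and 10.4 FPKM in WT libraries, without overlap (-1.27, adjusted p = 0.084). Slc36a1os (4921508A21Rik) was at 7.14, 7.32 and 5.89 FPKM in Mtr4-null cytoplasm and 1.92, 1.53 and 1.72 FPKM in WT cytoplasm (1.51 ± 0.31, adjusted p = 0.023). A330069E16Rik, near the start of the DNA repair gene Ddb2 and named after its values were seen, was at 6.96, 3.66 and 5.84 FPKM in Mtr4-null cytoplasm and 2.32, 1.22 and 0.674 FPKM in WT cytoplasm (1.45 ± 0.34, adjusted p = 0.040).

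**Figure D5:**
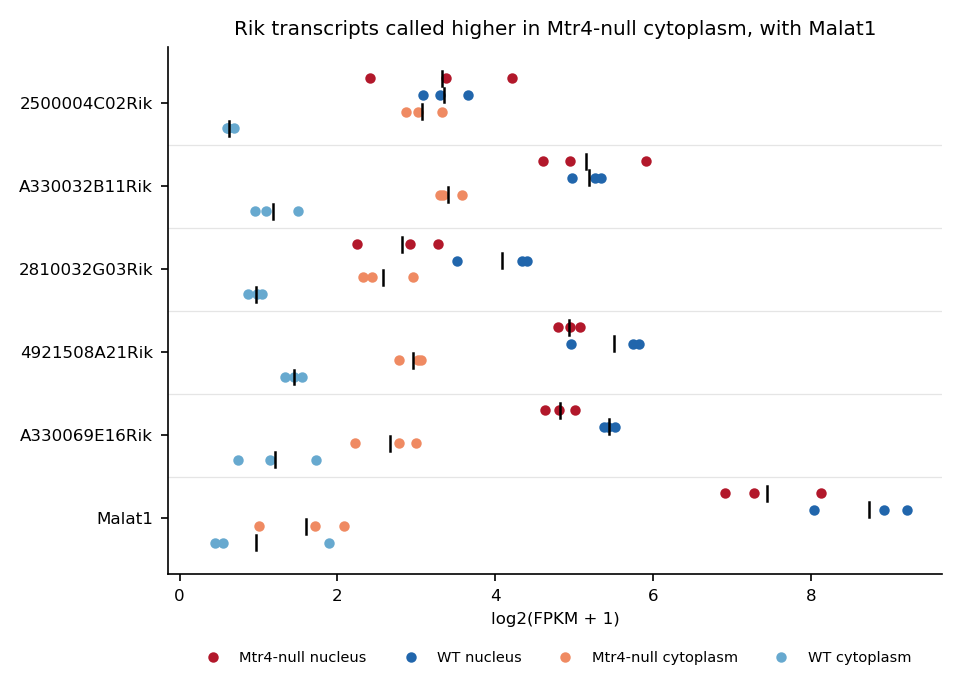
log2(FPKM + 1) of the 5 members called higher in Mtr4-null cytoplasm and of Malat1, 1 dot a library and a black tick at the mean of 3, in the order Mtr4-null nucleus, WT nucleus, Mtr4-null cytoplasm and WT cytoplasm. For the 5 Rik genes the orange dots lie apart from the light blue dots, while for Malat1 they overlap.

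All 5 are annotated as long noncoding RNAs, and their cytoplasmic mean was 72.0%, 25.6%, 80.0%, 22.8% and 20.1% of the nuclear mean in Mtr4-null libraries, in the order given. In WT libraries, where the rule itself holds them low, the shares were 5.90%, 3.64%, 5.73%, 3.75% and 3.30%. The calls of 2500004C02Rik and A330032B11Rik were lost under 1 alternative each, without Mtr4-null cytoplasm replicate 3 (adjusted p = 0.051) and under quantile normalization. The other 3 were lost in 7 to 11 of 20. The count of 5 was 15 with replicates 1 and 3 both removed from the nuclei labelled Mtr4-null (849 of 12798 rows, 6.63%), 10 without replicate 2 (272 of 13053, 2.08%), 8 without replicate 3 (414 of 12997, 3.19%), 1 without Mtr4-null cytoplasm replicate 3 and 2 without any other single cytoplasm.

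Members outside these calls include large differences with wide errors and small declines. Gm20594 had the largest cytoplasmic difference of all members (3.56 ± 1.22, adjusted p = 0.17). The largest in the other direction were 1500012K07Rik (-0.56), 5730408K05Rik (-0.42), Ssc5d (A430110N23Rik, -0.25) and 4930558G05Rik (-0.14), none of which was called. These were at or below 1.29 FPKM in every cytoplasm.

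Among named nuclear noncoding RNAs, a list of 22 of which 18 were in the table and 11 were tested, the pattern was as follows. In libraries labelled Mtr4-null 3 were higher in the nucleus and 0 lower (4.08% and 28.1% of all rows). They were Malat1 (5.84 ± 0.47, limma adjusted p = 4.7e-06), Kcnq1ot1 (3.23 ± 0.39, adjusted p = 0.00020) and Ipw (3.31 ± 0.64, adjusted p = 0.0096). Ipw is a transcript of the imprinted Snrpn region. Between nuclei, 3 were lower in libraries labelled Mtr4-null and 0 higher (1.75% and 0.517% of all rows). These were Ipw (-3.20), Airn (-1.85) and Peg13 (-1.51), all imprinted noncoding genes. Without replicates 1 and 3 the difference to cytoplasm was 5.311 for Malat1, 2.441 for Kcnq1ot1, 2.267 for Ipw and -1.198 for Pvt1. The median of the 11 was then 0.449, against -1.279 over all rows. Against WT nuclei it was -1.819, and -0.489 over all rows. In cytoplasm 0 were called (1.17% of all rows higher and 0.714% lower), and 9 of the 11 differences were above 0 (6535 of 13157 rows).

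For MTR4, the exosome and its adaptors 24 genes were tested. Of these, 0 were higher and 7 lower in nuclei labelled Mtr4-null than in Mtr4-null cytoplasm. The 7 were 29.2% of the list, near the 28.1% of all rows called lower (4.08% were called higher). Between the genotypes 0 were called in the nucleus (0.517% of all rows higher and 1.75% lower). In cytoplasm only Skiv2l2 was called, as lower (0.714% of all rows).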

How the data were processed

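The deposited table holds FPKM per gene for the 12 libraries of 10 nuclei or 10 cytoplasms each. TopHat2 2.1.1, Cufflinks 2.2.1 and mm9 are named in the submitters' processing notes, while the gene annotation and whether strand was used in counting are not stated there. The labels mention duplicates in the design and give 3 libraries a group, all of which were used. FPKM values give no counts, so depth is unknown and no counting interval is given.

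The 13157 rows that reached 1 FPKM in 3 or more of the 12 libraries entered one limma 3.58.1 fit (R 4.3.3) on log2(FPKM + 1) with 4 groups and a trended spread, and p-values were adjusted over all rows by Benjamini-Hochberg with a threshold of 0.05. A log2 difference is on that scale and understates the change of low genes. An exact permutation test of 3 against 3 libraries cannot go below 0.1 and was not used. A value listed at 0 may be a failed estimate. The fit was also run on simulated data with independent normal noise. That simulation held no mislabelled or mixed library, so it cannot vouch for calls that rest on the doubtful nuclei.

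The members and gene lists were chosen with earlier results of these data known. Genes were named by rank among members, namely the 10 highest in WT nuclei, those with the largest and smallest differences in each comparison, those nearest to the ratio threshold, and those with a current RefSeq name. A symbol chosen otherwise is said to be. Alternatives were another pseudocount (0.1), no filter, other scalings, library weights, a replicate block, a fit of 6 libraries alone, each library left out, and members chosen without 1 WT library. The omission of both doubtful nuclei (replicates 1 and 3, labelled Mtr4-null) was extended to the gene lists, ratios, percentages and overlap partners after seeing the data.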

Additional observations from a re-analysis of the deposited data

Results flagged for a closer look

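For 17 of the 64 members, every nucleus labelled Mtr4-null lay below every WT nucleus while every Mtr4-null cytoplasm lay above every WT cytoplasm, so the genotype difference ran in opposite directions in the compartments. This held for 129 of the 13157 rows tested (0.980%), against 26.6% of the members. Of the 141 rows with other names that met the same level and ratio, it held for 22 (15.6%). With replicate 2 as the only nucleus labelled Mtr4-null it held for 22 members (34.4%), 30 of those 141 rows (21.3%) and 865 of all rows (6.57%). The difference between the compartments was not tested, and the choice of members by high WT nuclear and low WT cytoplasmic values favours both directions. The 17 included A130077B15Rik (log2 difference -1.54 in nucleus and 1.51 in cytoplasm), A630089N07Rik (-1.84 and 1.40), 2610019E17Rik (-2.18 and 1.32) and 2810032G03Rik (-1.27 and 1.61), and 12 of them were long noncoding RNAs.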

How the results depend on the processing

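Of 2013 differences of named genes under alternatives, 1777 kept their side of the threshold (49 of these changed sign with no call under either setting), 110 gained a call, 126 lost one and 0 reversed. For nuclei labelled Mtr4-null against Mtr4-null cytoplasm, the count of members called higher was 53, was 35 in a fit of the 6 libraries alone and ran between 36 and 55 with each library left out, and 1 member was called lower without replicates 1 and 3. The median log2 difference of 1.99 became 3.10 with pseudocount 0.1, 2.655 with median-of-ratios scaling, 2.51 with quantile normalization, 2.1 with library weights, 2.27 in the 6 libraries alone and 2.06 without replicates 1 and 3, and ran between 1.96 and 2.13 with each library left out. These scalings moved the median of all rows (-0.82 as deposited) to -0.03 and -0.10.

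For nuclei labelled Mtr4-null against WT nuclei, the 13 members called lower became 0 with pseudocount 0.1, 36 with median-of-ratios scaling, 35 with quantile normalization, 7 with library weights, 1 in the 6 libraries alone and 40 without replicates 1 and 3, and ran between 0 and 31 with each library left out. Of all rows, 1.75% were called lower with the settings used above and 0.524% with pseudocount 0.1. That share was 8.05% with median-of-ratios scaling, 4.88% with quantile normalization, 0.996% with library weights and 0.0660% in the 6 libraries alone. The members' median of -1.28 became -0.70 for members chosen without WT nucleus 2 and set against it. For cytoplasm, the 5 called higher became 3 with no filter, 2 with quantile normalization, 28 with library weights (20.6% of all rows; estimated by an iteration that stopped short of its tolerance), 16 in the 6 libraries alone (15.5% of all rows; 20 members were tested) and 15 without nuclei 1 and 3 (6.63%), and ran between 1 and 10 with each library left out. Its median of 0.41 became 1.22 with pseudocount 0.1, 1.36 in the 6 libraries alone and 0.31 against WT cytoplasm 1. The cause was not tested.

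With the replicate number as a block, 56 members were called higher in nuclei labelled Mtr4-null than in Mtr4-null cytoplasm (4.56% of all rows). In that fit 16 were lower than in WT nuclei (2.16%) and 7 higher in Mtr4-null than in WT cytoplasm (1.56%). The medians of the members were 1.99, -1.28 and 0.41. Same-numbered libraries correlated between -0.154 and 0.303 in their deviations, so the numbers were not taken as pairs.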
